A study of Mus musculus with 15 samples.

Results

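The transcription factors that set up and maintain skeletal muscle were examined in tibialis anterior, a fast limb muscle, from mice carrying a melanoma that induces cachexia, the wasting of body and muscle seen with tumours. The 9 genes were Pax7, Myf5, Myod1, Myf6, Mef2a, Mef2c, Mef2d, Six4 and Eya1, picked by symbol as satellite cell and muscle transcription factors out of 47643 gene symbols in the expression table. All 9 were found, and all 9 passed a filter of at least 1 TPM in at least 3 libraries. TPM is a transcript abundance per transcript length, scaled to the same total in every library.

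The 4 groups were of female C57BL6/J mice, with the age given in the labels as 7 weeks. The melanoma plus lisinopril group (4 libraries) carried the implanted melanoma and was given lisinopril, a drug that blocks angiotensin-converting enzyme. The melanoma group (4 libraries) carried the tumour without the drug, the lisinopril group (3 libraries) received the drug after a mock injection, and the control group (4 libraries) was mock-injected only. Muscle was taken 49 days after implantation, per the design text, while the extraction protocol in the labels speaks of 3 weeks after injection of LLC cells, a lung carcinoma line. The sources used here do not give the melanoma line, the dose of lisinopril or any muscle or body weights. The labels call the libraries biological replicates, so p-values measure the spread between these libraries.

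Pax7 marks satellite cells, the stem cells of muscle, which lie beside the fibres and are mostly quiescent. Myf5 and Myod1 commit such cells to the muscle lineage, myogenin (Myog) drives their differentiation, and Myf6, also called MRF4, is the member of this basic helix-loop-helix family that stays high in mature fibres. These MRFs bind E-boxes (CANNTG) and act with the MEF2 factors, while Six4 and its EYA coactivators act upstream of the MRFs and on genes of fast fibres.

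Myofibre markers were abundant in every library, with the 8 markers summing to 60588 to 130645 TPM in tumour-bearing muscle and 67101 to 114085 TPM in tumour-free muscle. The 5 melanocyte or melanoma markers summed to at most 0.392 TPM, and Tyr was at 0 in every library. The mean correlation to the rest of the group was 0.937 for control 2 and 0.938 for melanoma 2, which thus stood apart, against at least 0.965 for the others. Control 2 also held the highest sums of red blood cell markers (23990 TPM) and of B cell markers (41.3 TPM). TPM have the same sum in every library and keep no sequencing depth, so counting error is unknown. The mitochondrial genome took 28.5% to 46.9% of TPM in tumour-bearing and 40.8% to 52.8% in tumour-free libraries.

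Eya1 and Mef2d were higher in tumour-bearing muscle, and these were the 2 of 9 factors past the threshold in the average tumour effect, the mean of the contrasts with and without lisinopril. Eya1 was 1.54-fold and Mef2d 1.32-fold higher in this fit, limma on log2(TPM + 1) with Benjamini-Hochberg adjustment over 11923 genes and a threshold of 0.05. Of all genes tested 18.0% were called in this contrast, 14.5% as higher, so 2 of 9 is close to the background share. Myf6 averaged higher and Mef2c lower without passing the threshold (adjusted p = 0.0575 and 0.0911), and 5 of 9 had an unadjusted p under 0.05, against 38.0% of all genes. The median log2 fold change was 0.32 over the 9 factors and 0.17 over all genes. Since libraries are scaled to a fixed sum, that shift of the median moves with the scaling: after median-ratio rescaling it was -0.0054, and the share of calls that were higher went down to 46.4%, against 80.8% in TPM.

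**Figure D1:**
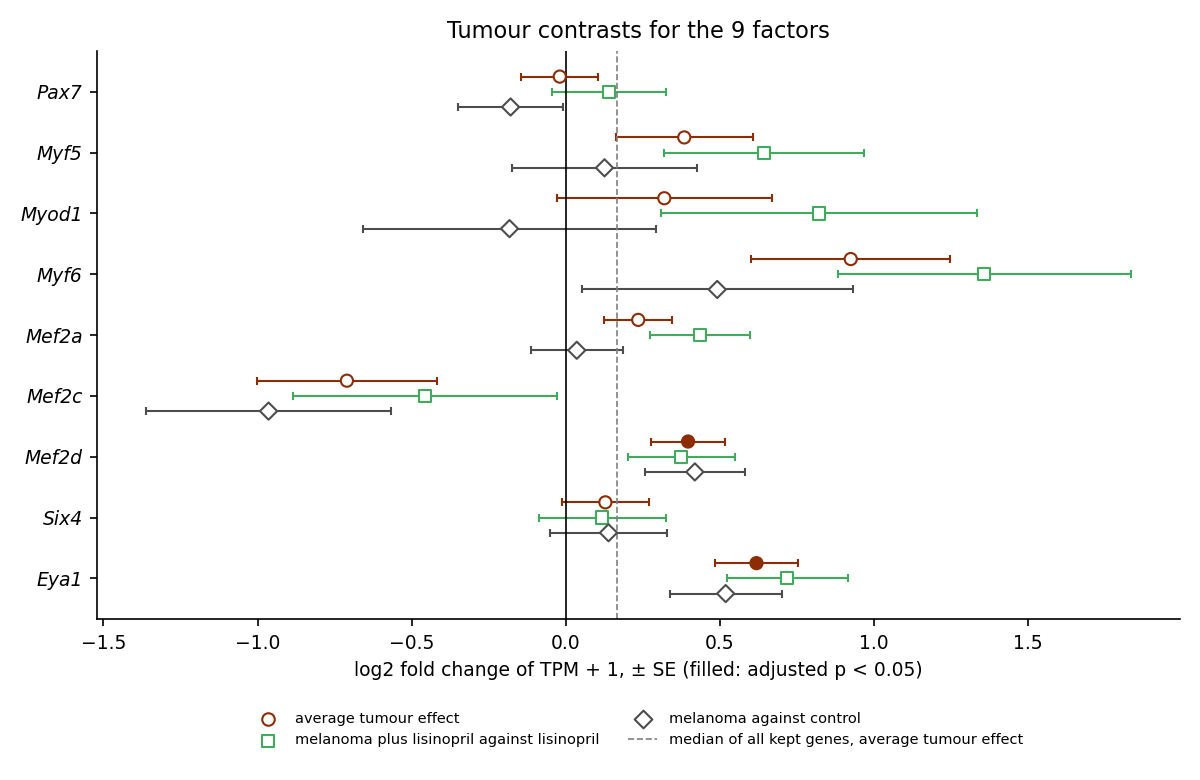
Log2 fold change of TPM + 1 with its standard error for each factor in the average tumour effect, in melanoma plus lisinopril against lisinopril and in melanoma against control, with filled symbols for an adjusted p under 0.05. Only Eya1 (0.62) and Mef2d (0.40) are filled, both in the average tumour effect, and Mef2c is the only factor left of 0 in all 3 contrasts.

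None of the 9 passed the threshold in melanoma against control, where 0.646% of genes were called, or in melanoma plus lisinopril against lisinopril, where 1.48% were called. Unadjusted p-values under 0.05 were found for 3 and 4 of the 9 in these contrasts by limma, against 18.5% and 23.3% of all genes. In melanoma against control the groups did not overlap for Eya1 and Mef2d, which were higher throughout, as were 5.33% of genes. In melanoma plus lisinopril against lisinopril the same held for Eya1, Mef2d and Mef2a and for 29.0% of genes.

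The level ordered the factors as follows, by mean TPM over the 15 libraries, a scale that is per transcript length. Myf6 came first with 185 TPM, followed by Mef2c with 93.8, Mef2d with 90.3, Mef2a with 26.9 and Myod1 with 20.3 TPM. Eya1 (8.27), Six4 (4.82), Myf5 (1.95) and Pax7 (0.763) followed. The ranges of neighbours in this order overlapped, except that every Mef2d value lay above every Mef2a value. The means of Mef2c and Mef2d stood in opposite order on the sides of the tumour contrast, though not every library followed. Mef2c lay above Mef2d in every tumour-free library and also in melanoma 3 and in melanoma plus lisinopril 2 and 3. In the remaining tumour-bearing libraries Mef2c lay below, farthest in melanoma 2 (19.0 against 136 TPM). In tumour-bearing muscle Mef2c averaged 75.6 ± 28.9 and Mef2d 102 ± 18.7 TPM (SD, n = 8), and in tumour-free muscle Mef2c averaged 115 ± 15.6 and Mef2d 76.8 ± 6.89 TPM (n = 7).

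Pax7 (chr4:139737062-139833528, minus strand, GENCODE M21 on mm10) was close to the filter and did not differ detectably with the tumour. It had 0.574, 1.02, 0.960 and 0.827 TPM in the 4 melanoma plus lisinopril libraries and 0.769, 0.405, 0.813 and 0.555 TPM in the 4 melanoma libraries, against 0.299, 1.10 and 0.699 TPM in the 3 lisinopril libraries and 1.11, 0.825, 0.503 and 0.988 TPM in the 4 controls. All 4 groups overlapped, and the lowest and the highest value were both in tumour-free muscle. On average over both arms the tumour effect was -0.019 ± 0.13 on the log2 scale (adjusted p = 0.924 in limma), and its sign turned without melanoma 2 or without melanoma plus lisinopril 1 (0.016 and 0.018). A pseudocount of 1 understates changes at this level, and in whole muscle fewer satellite cells and less RNA per cell cannot be told apart.

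Myf5 (chr10:107482908-107486134, minus strand) was also low, and its highest values were in tumour-bearing muscle. It had 1.74, 2.97, 1.21 and 4.81 TPM in melanoma plus lisinopril, 2.74, 1.28, 2.48 and 1.37 TPM in melanoma, 0.626, 2.12 and 1.10 TPM in lisinopril and 2.26, 2.18, 0.925 and 1.48 TPM in control. Of the 8 tumour-bearing libraries 4 lay above all 7 tumour-free ones, and the other 4 lay among them. Its average tumour effect was 0.38 ± 0.22 (adjusted p = 0.212 in limma). The 8 satellite cell markers, Pax7 and Myf5 among them, summed to 25.5 to 51.1 TPM in tumour-bearing and 18.3 to 32.3 TPM in tumour-free muscle, and none was at 0 throughout. Of the 7 kept 2 (Cdh15, and Chrdl2, which reached 1 TPM in tumour-bearing libraries alone) were called as higher, against 18.0% of all genes called, and the median log2 fold change of the 7 was 0.022. Cdh15 was the most abundant of them on average, with 11.9 to 38.4 TPM in tumour-bearing and 10.8 to 14.3 TPM in tumour-free muscle. Values under the whole tumour-free range were seen in 4 of 8 libraries with the tumour for Vcam1 and in 5 of 8 for Heyl, and neither was called (-0.63 ± 0.23 and -0.20 ± 0.17, adjusted p = 0.0656 and 0.396 in limma).

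Myod1 (chr7:46376474-46379099, plus strand) varied more within the tumour-bearing groups than between groups. It had 10.6, 50.7, 22.0 and 42.1 TPM in melanoma plus lisinopril and 40.2, 8.58, 9.25 and 10.9 TPM in melanoma, against 13.0, 16.2 and 15 TPM in lisinopril and 19.6, 18.1, 9.81 and 17.7 TPM in control. Of the tumour-bearing libraries 4 lay above every tumour-free one, 3 of them given lisinopril, and 2 melanoma libraries lay below every tumour-free one. The SD of log2(TPM + 1) was 0.976 in melanoma plus lisinopril and 0.992 in melanoma, against 0.150 in lisinopril and 0.429 in control. The average tumour effect was 0.32 ± 0.35 (adjusted p = 0.517 in limma), with 0.82 ± 0.51 with the drug and -0.18 ± 0.47 without it, and the second of these was 0.027 without melanoma 2.

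Myf6, 6718 bases from Myf5 on the same strand (chr10:107492853-107494737), was the most abundant of the 9 on average and had a 6.21-fold range over the libraries. It had 269, 402, 92.0 and 465 TPM in melanoma plus lisinopril and 329, 115, 139 and 157 TPM in melanoma, against 101, 124 and 82.4 TPM in lisinopril and 158, 125, 74.9 and 142 TPM in control. Melanoma plus lisinopril 1, 2 and 4 and melanoma 1 lay above every tumour-free library, and the other 4 tumour-bearing libraries overlapped with them. On average over both arms the tumour effect was 0.93 ± 0.32 (adjusted p = 0.0575 in limma). It passed the threshold in 4 of 26 alternatives. Without melanoma plus lisinopril 3 it was 1.17 (adjusted p = 0.00785 in limma). With that library kept, it passed with sample quality weights (0.71), with the replicate block (0.87) and without control 2 and melanoma 2 together (1.03). The adjusted p of these was 0.0406 to 0.0478 in limma. Within the drug arms the contrast was 1.36 ± 0.47 (adjusted p = 0.134 in limma). There it passed in 1 of 27 alternatives, without melanoma plus lisinopril 3 (1.86, adjusted p = 0.0170 in limma). Myf6 made up 72.3% to 86.2% of the summed TPM of Myf5, Myod1, Myf6 and Myog in tumour-bearing muscle and 61.3% to 80.4% in tumour-free muscle.

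Myog, the remaining member of the MRF family, overlapped widely between tumour-bearing and tumour-free muscle. It had 33.2, 89.6, 12.1 and 27.5 TPM in melanoma plus lisinopril and 26.9, 18.1, 14.8 and 19.4 TPM in melanoma, against 10.9, 38.4 and 6.23 TPM in lisinopril and 77.6, 20.8, 16.9 and 24.9 TPM in control. The highest values, in melanoma plus lisinopril 2 and control 1, came from opposite sides of the tumour contrast, and the average tumour effect was 0.29 ± 0.44 (adjusted p = 0.650 in limma).

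**Figure D2:**
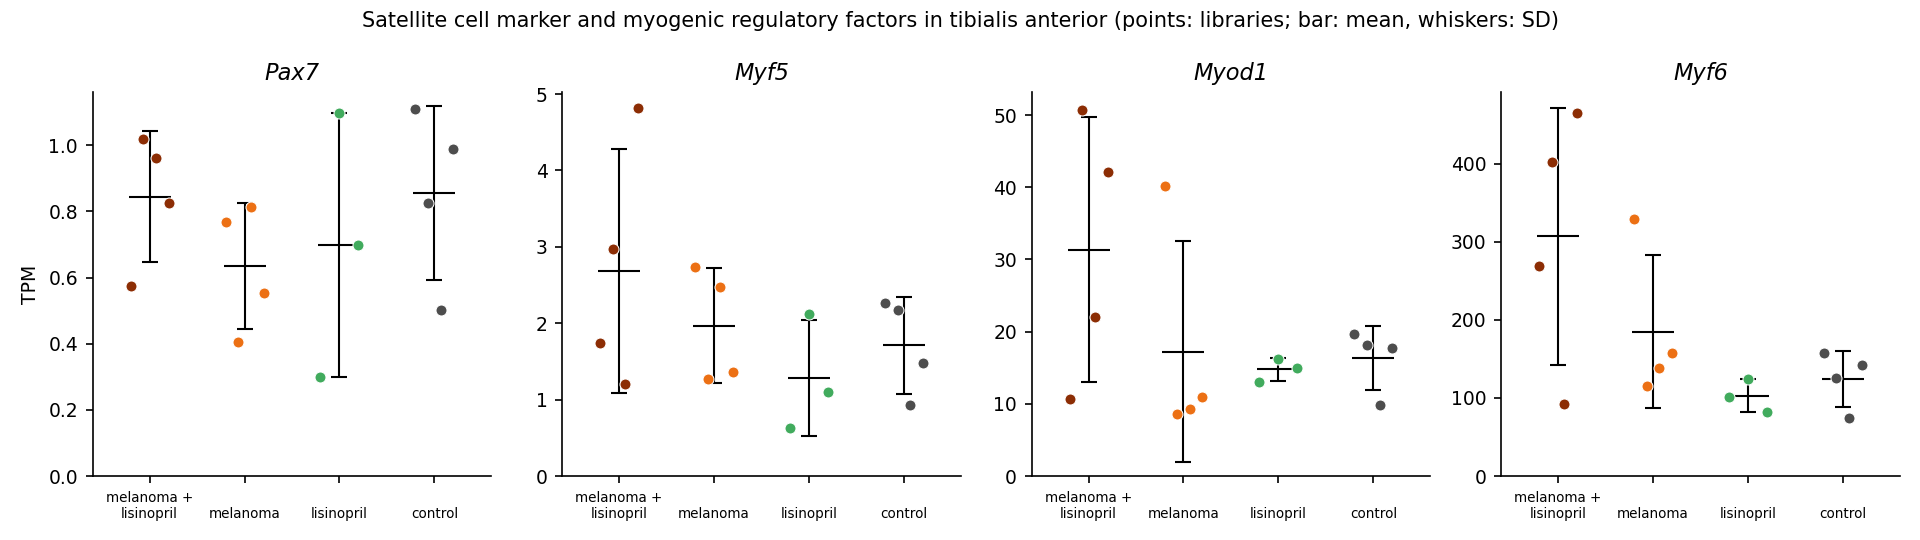
TPM of Pax7, Myf5, Myod1 and Myf6 in each library by group, with the group mean as a bar and the SD as whiskers. Myf6 reaches 465 TPM in melanoma plus lisinopril and at most 158 TPM in tumour-free muscle, and the melanoma library at 40.2 TPM of Myod1 stands far from the other 3.

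The 3 MEF2 factors are MADS-box proteins that bind AT-rich sites in muscle gene promoters together with the MRFs. Mef2d was higher with the tumour, in a call that rests on the scaling, while Mef2c averaged lower and Mef2a higher without passing the threshold. The promoter windows of the 3 genes were chosen for display with these values known. Each runs from 250 bases before a RefSeq transcript start of build GRCm38.p6 to 20 bases after it, 5′ to 3′ on the gene's strand, with matches to 3 motifs in capitals. The motifs were the E-box CANNTG, the MEF2 site, and TCAGGTT, the MEF3 sequence bound by Six4 (also searched as AACCTGA).
Mef2c, chr13:83503784-83504053, plus strand: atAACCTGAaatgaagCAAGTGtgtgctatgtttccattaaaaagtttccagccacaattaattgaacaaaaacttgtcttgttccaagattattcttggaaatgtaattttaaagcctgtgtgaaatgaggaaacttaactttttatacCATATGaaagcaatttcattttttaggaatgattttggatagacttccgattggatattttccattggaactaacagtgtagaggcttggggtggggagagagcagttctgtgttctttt
Mef2d, chr3:88142122-88142391, plus strand: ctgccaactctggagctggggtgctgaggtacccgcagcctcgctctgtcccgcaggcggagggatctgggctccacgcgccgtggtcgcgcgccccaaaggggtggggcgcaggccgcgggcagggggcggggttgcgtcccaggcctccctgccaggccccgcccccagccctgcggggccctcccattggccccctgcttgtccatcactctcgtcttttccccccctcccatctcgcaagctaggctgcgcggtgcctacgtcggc
Mef2a, chr7:67372839-67373108, minus strand: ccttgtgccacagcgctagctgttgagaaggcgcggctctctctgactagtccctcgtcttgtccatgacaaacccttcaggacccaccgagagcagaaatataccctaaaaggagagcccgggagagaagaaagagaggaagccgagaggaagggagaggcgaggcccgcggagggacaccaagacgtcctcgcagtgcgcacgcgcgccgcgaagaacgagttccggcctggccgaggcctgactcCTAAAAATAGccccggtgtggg
The Mef2c window shown, at the first of its 3 starts, has 34.1% G and C and holds 2 E-boxes and 1 AACCTGA. The windows at the other Mef2c starts have 46.3% with none of the motifs and 49.3% with 1 E-box, and which start was used was not measured. The Mef2d window has 73.3% G and C and none of the motifs, and the Mef2a window has 61.1% and 1 MEF2 site across the start. No motif matches overlapped another. Of 32841 mouse promoter windows of the same length, 68.9% held an E-box, 3.01% a MEF2 site and 3.74% TCAGGTT on either strand, and the quartiles of their G and C content were 45.6%, 52.6% and 61.5%. A match is a stretch of letters only, and no binding was measured. RefSeq windows were found for 6 of the 9 genes.

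Mef2c (chr13:83504034-83667080, plus strand), whose product drives fibre maturation and sarcomere genes, averaged lower with the tumour without passing the threshold. It had 53.3, 88.0, 99.7 and 66.9 TPM in melanoma plus lisinopril and 81.8, 19.0, 109.6 and 86.8 TPM in melanoma, against 96.2, 98.3 and 115 TPM in lisinopril and 136, 105, 119.6 and 132 TPM in control. Among the tumour-bearing libraries 6 of 8 lay below all 7 tumour-free ones, with melanoma 2 far below the rest, while melanoma plus lisinopril 3 and melanoma 3 overlapped with the lisinopril group. Its average tumour effect was -0.71 ± 0.29 (adjusted p = 0.0911 in limma). Without melanoma 2 the difference was smaller but past the threshold, at -0.43 (adjusted p = 0.0497). Mef2c is also used by endothelial cells, macrophages and B cells. Endothelial markers summed to 89.9 to 152.5 TPM in tumour-bearing and 69.6 to 159.1 TPM in tumour-free muscle, macrophage markers to 17.7 to 99.9 and 6.74 to 43.0 TPM, and B cell markers to 0.295 to 3.37 and 0.824 to 41.3 TPM. Their part in the Mef2c level was not tested.

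Mef2d (chr3:88142372-88172086, plus strand) is expressed in proliferating precursors as well as fibres, and it was higher with the tumour. It had 99.1, 77.1, 95.2 and 122 TPM in melanoma plus lisinopril and 96.0, 136, 104 and 88.6 TPM in melanoma, against 73.8, 73.7 and 76.4 TPM in lisinopril and 85.9, 77.4, 65.8 and 84.7 TPM in control. In Mef2d, 7 of 8 tumour-bearing libraries lay above every tumour-free one, and the exception was melanoma plus lisinopril 2, which still lay above the whole lisinopril group. The average tumour effect was 0.40 ± 0.12 (adjusted p = 0.0358 in limma), or 0.23 above the median of all genes. This call rests on the scaling and on single libraries. It was 0.19 (adjusted p = 0.141) after median-ratio rescaling and 0.27 (adjusted p = 0.0566) in TPM recomputed without the mitochondrial genome. It also ended without any one of control 3, control 4, lisinopril 1, lisinopril 2, lisinopril 3, melanoma 3, melanoma plus lisinopril 1 or melanoma plus lisinopril 4, with values of 0.34 to 0.42 and adjusted p of 0.0501 to 0.0826. The annotation has 1700113A16Rik on the opposite strand within Mef2d, and although the library kit is stranded, the sources used here do not say whether counting used the strand.

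Mef2a (chr7:67231163-67372858, minus strand), the family member found in many tissues, had 29.6, 26.6, 28.5 and 35.6 TPM in melanoma plus lisinopril and 28.2, 32.0, 27.5 and 22.3 TPM in melanoma, against 18.3, 22.0 and 25.9 TPM in lisinopril and 30.6, 26.5, 23.7 and 26.0 TPM in control. The melanoma and control groups overlapped, and melanoma plus lisinopril lay above lisinopril throughout. On average over both arms the tumour effect was 0.24 ± 0.11 (adjusted p = 0.132 in limma), or 0.068 above the median of all genes. In melanoma against control it was 0.036 and turned sign in 8 of 27 alternatives. Lysmd4 on the opposite strand and 2 further transcripts on the same strand overlap Mef2a. Mef2b was under the filter, at 0 to 0.920 TPM.

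The ranges of the summed TPM of Mef2a, Mef2c and Mef2d overlapped between tumour-bearing and tumour-free muscle, while those of the Mef2c and Mef2d shares did not. The sum was 182 to 241 TPM in tumour-bearing and 188 to 252 TPM in tumour-free muscle, with medians of 202 and 209 TPM. Mef2c made up 29.3, 45.9, 44.6 and 29.8% of it in melanoma plus lisinopril and 39.7, 10.1, 45.5 and 43.9% in melanoma, against 51.1, 50.7 and 53.0% in lisinopril and 53.8, 50.3, 57.2 and 54.4% in control. All 8 tumour-bearing libraries lay below all 7 tumour-free ones in this share, with melanoma 2 lowest. The Mef2d share was 47.9 ± 7.54% in melanoma plus lisinopril and 51.8 ± 14.0% in melanoma (SD, n = 4 each), against 37.4 ± 2.10% in lisinopril (n = 3) and 34.4 ± 2.30% in control (n = 4), and all 8 tumour-bearing libraries lay above all 7 tumour-free ones. A ratio within a library does not depend on the scaling of TPM. The Mef2c to Mef2d ratio was 0.819 ± 0.320 in melanoma plus lisinopril and 0.757 ± 0.421 in melanoma, against 1.38 ± 0.111 in lisinopril and 1.58 ± 0.188 in control, and it ranged from 0.139 to 1.14 with the tumour and 1.30 to 1.82 without it. The Mef2a share overlapped, at 11.3% to 17.1% with the tumour and 9.72% to 12.7% without it. With so small a part left to Mef2a, the Mef2c share, the Mef2d share and the ratio nearly fix each other. Their separations are therefore close to a single observation. The shares and the ratio were set up with the levels of the members already known and carry no test. Among single genes 1.49% lay wholly above and 0.839% wholly below in this split. Those percentages are no background for shares or ratios, for which none was computed, so how unusual the separation is remains unknown.

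**Figure D3:**
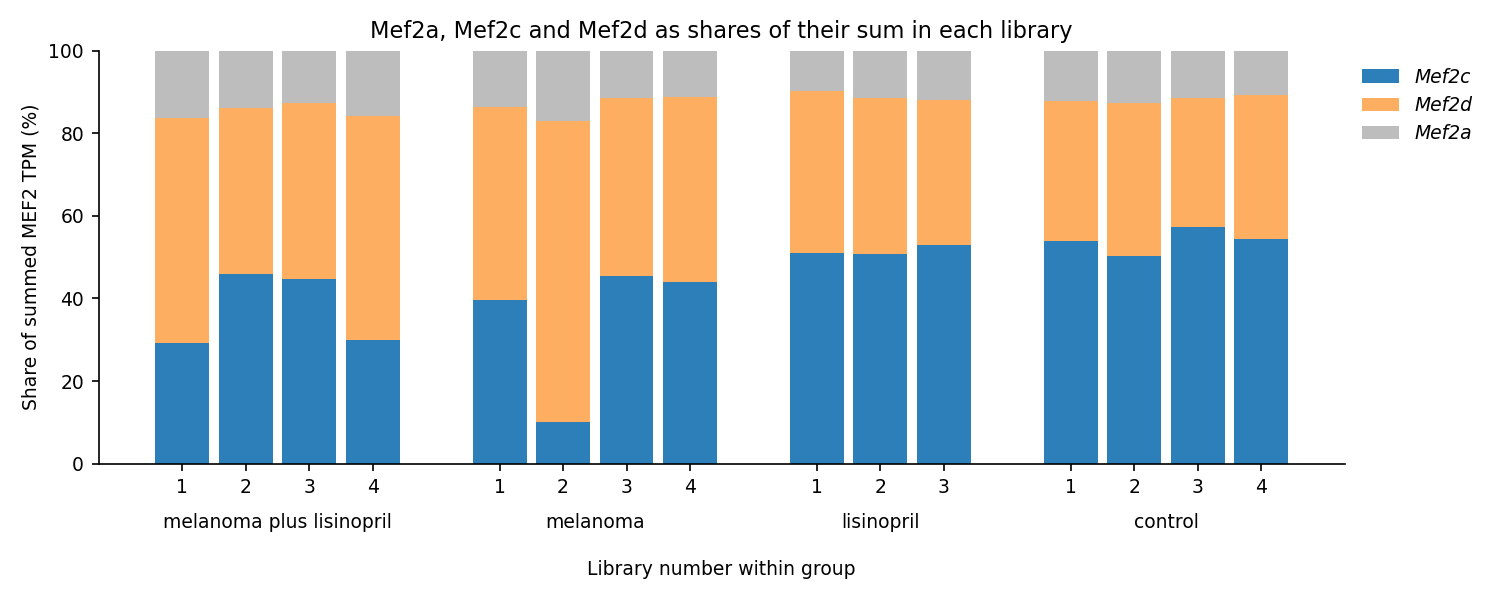
Stacked bars of Mef2c, Mef2d and Mef2a as percent of their summed TPM, one bar per library, ordered by group. Mef2c takes 50.3% to 57.2% of the sum in tumour-free libraries and 10.1% to 45.9% in tumour-bearing ones.

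Six4 (chr12:73099609-73113456, minus strand), a homeodomain protein that acts on the MRF genes, did not differ detectably. It had 2.89, 5.65, 3.80 and 6.84 TPM in melanoma plus lisinopril and 5.65, 5.56, 5.58 and 4.67 TPM in melanoma, against 3.56, 4.44 and 4.49 TPM in lisinopril and 5.13, 5.44, 4.45 and 4.15 TPM in control. Melanoma plus lisinopril held both the lowest and the highest library of all. Its average tumour effect was 0.13 ± 0.14 (adjusted p = 0.516 in limma), and its sign turned after median-ratio rescaling (-0.048). Six2 and Six5 were not called either (adjusted p = 0.619 and 0.443 in limma), and Six2 was at -0.0013 after median-ratio rescaling.

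Eya1 (chr1:14168954-14310235, minus strand), a coactivator of Six4 with phosphatase activity, had the lowest adjusted p of the 9 in the average tumour effect. It had 11.4, 8.64, 9.10 and 14.3 TPM in melanoma plus lisinopril and 11.2, 11.4, 7.65 and 7.28 TPM in melanoma, against 5.91, 5.33 and 7.14 TPM in lisinopril and 6.66, 5.94, 5.40 and 6.58 TPM in control. All 8 tumour-bearing libraries lay above all 7 tumour-free ones, as they did for 1.49% of all genes, though melanoma 4 at 7.28 TPM and lisinopril 3 at 7.14 TPM were close. The average tumour effect was 0.62 ± 0.13 (adjusted p = 0.0100 in limma), or 0.45 above the median of all genes. It passed the threshold under all 26 alternatives run, with 0.37 as the lowest value. The contrast was 0.72 ± 0.20 with the drug (adjusted p = 0.0746) and 0.52 ± 0.18 without it (adjusted p = 0.168 in limma), and in neither did the groups overlap. Without melanoma 2 the contrast with the drug passed the threshold (0.72, adjusted p = 0.0408 in limma). Gm22616 on the opposite strand and Gm37444 on the same strand overlap Eya1.

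Among the other EYA genes, Eya4 and Eya2 were also called as higher. Eya4 had 10.8, 18.7, 14.1 and 21.8 TPM in melanoma plus lisinopril and 14.5, 10.2, 16.4 and 13.4 TPM in melanoma, against 6.28, 8.72 and 10.7 TPM in lisinopril and 11.3, 12.0, 7.66 and 12.0 TPM in control, an average tumour effect of 0.58 ± 0.17 (adjusted p = 0.0312 in limma) with overlapping groups. Eya2 was less abundant, at 0.939 to 1.64 TPM with the tumour and 0.314 to 2.24 TPM without it, where control 2 held the highest value of all, and its effect was 0.56 ± 0.16 (adjusted p = 0.0328 in limma). Eya2 reached the 1 TPM of the filter in 7 tumour-bearing libraries and 1 tumour-free one, so it was tested because of the side where it was higher. Eya3 did not pass the threshold (0.33 ± 0.12, adjusted p = 0.0676 in limma). The Eya4 call ended without any one of control 3, lisinopril 1, lisinopril 2, melanoma 1, melanoma 3, melanoma plus lisinopril 2 or melanoma plus lisinopril 4 (0.49 to 0.59). The Eya2 call ended without any one of control 1, control 3, control 4, lisinopril 1, lisinopril 2, lisinopril 3, melanoma 2, melanoma plus lisinopril 1 or melanoma plus lisinopril 2 (0.49 to 0.59). The Eya4 call held in 16 of 26 alternatives and the Eya2 call in 15 of 25. Of the 8 relatives of the members examined, 6 were kept and 2 were called, both higher, against 18.0% of all genes called. Since Eya2 passed the filter through its tumour-bearing libraries, its call supports nothing and leaves Eya4 alone in the count. Pax3 (0.068 to 0.519 TPM) and Mef2b were under the filter.

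**Figure D4:**
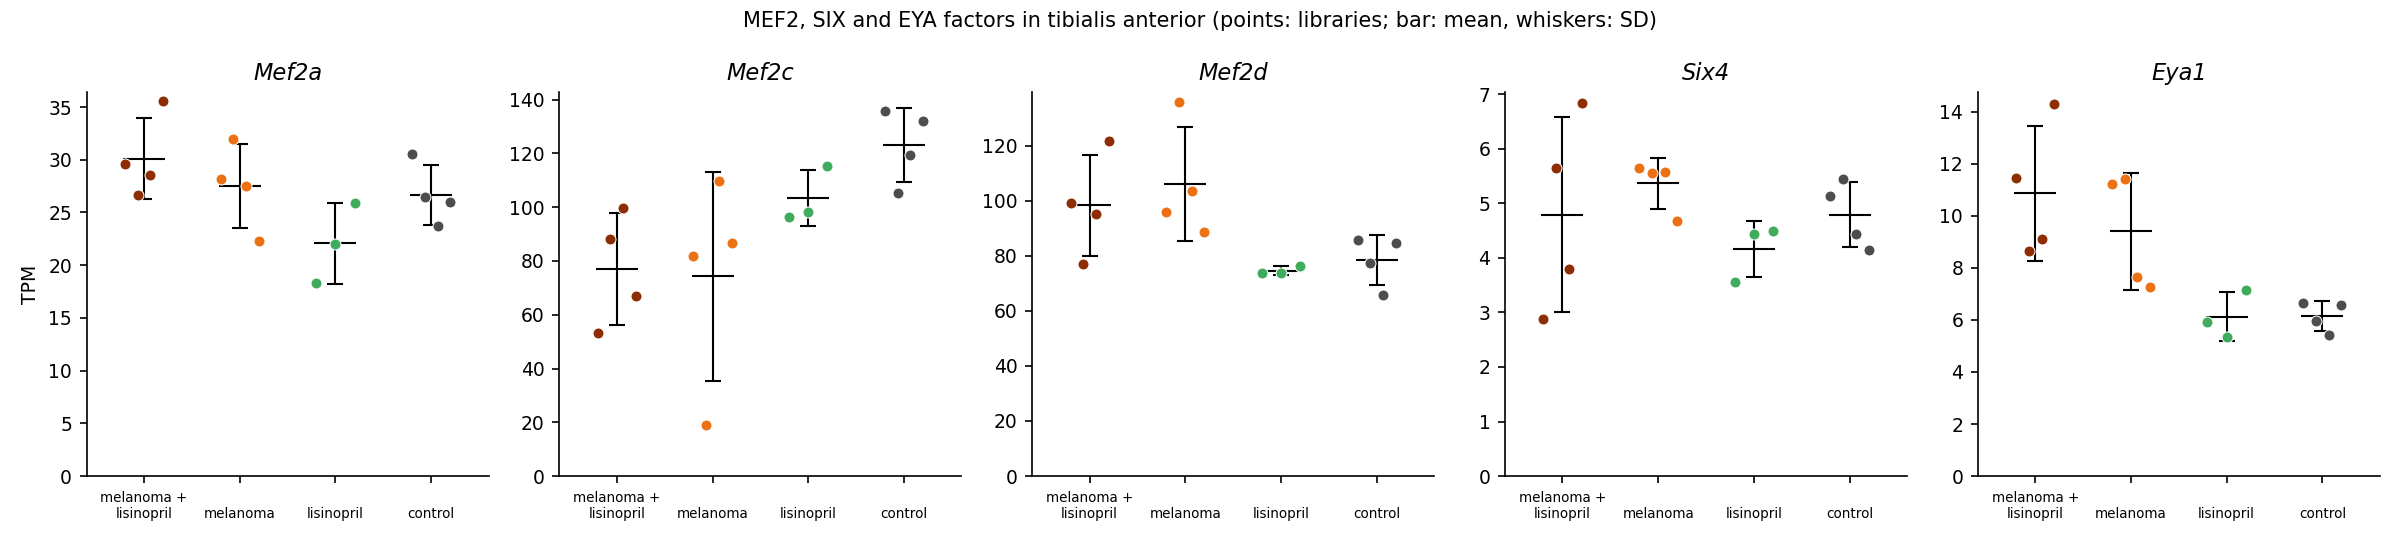
TPM of Mef2a, Mef2c, Mef2d, Six4 and Eya1 in each library by group, with the group mean as a bar and the SD as whiskers. Eya1 lies at 7.28 to 14.3 TPM in both tumour-bearing groups, above the 5.33 to 7.14 TPM of both tumour-free groups, and Mef2c has one melanoma library at 19.0 TPM.

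Lisinopril by itself gave no called difference. In lisinopril against control all 9 factors were below 0 on the log2 scale, at -0.27 to -0.0076 with adjusted p of 0.714 to 0.992, while the median of all genes was -0.18. No gene of 11923 was called in this contrast (0%), and 3.87% of genes and 0 of the 9 had an unadjusted p under 0.05 in limma. In tumour-bearing muscle, melanoma plus lisinopril against melanoma gave -0.19 (Six4) to 0.91 (Myod1), with an unadjusted p of 0.0754 for Myod1 and adjusted p of 1.00 for all 9 in limma. Again no gene was called (0%), and 1.59% had an unadjusted p under 0.05. The interaction, which asks whether the tumour effect differs with the drug, ranged from -0.044 ± 0.24 for Mef2d to 1.00 ± 0.70 for Myod1 and was 0.87 ± 0.65 for Myf6, 0.51 ± 0.58 for Mef2c and 0.20 ± 0.27 for Eya1. None of the 9 and no gene of the table passed the threshold (0%; 0 of the 9 and 1.27% of genes had an unadjusted p under 0.05 in limma). With standard errors this large for Myod1 and Myf6, these data do not show whether the drug changes the effect. Contrasts that use the same control or melanoma libraries are not independent of each other.

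Genes that work with the 9 factors were counted from lists chosen with earlier results of these data known, in the average tumour effect, beside the 18.0% called over all genes. Of 20 kept genes of satellite cells, 2 of which are among the 9 factors, 5 were higher and 0 lower (median log2 fold change 0.33). Itga7, a laminin receptor of fibres and satellite cells, was at 0.82 ± 0.17 (adjusted p = 0.00715 in limma). Notch1, a receptor that holds satellite cells quiescent, was at 0.70 ± 0.15 (adjusted p = 0.00839 in limma). The low-level marker Chrdl2 had 0.510 to 1.50 TPM in tumour-bearing and 0.0647 to 0.497 TPM in tumour-free muscle. It passed the filter through 5 tumour-bearing libraries and 0 tumour-free ones, so its call supports nothing and leaves 4 higher genes in the count. Cdh15, the adhesion protein M-cadherin, was at 0.64 ± 0.18 (adjusted p = 0.0317 in limma), a call that held in 16 of 26 alternatives. The call ended without a filter, after quantile normalization and after median-ratio rescaling, also when control 2 and melanoma 2 were left out with that rescaling. It also ended without any one of control 3, control 4, lisinopril 1, lisinopril 2, lisinopril 3 or melanoma 1 (0.60 to 0.65). The fifth was Met, the receptor for hepatocyte growth factor.

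Of 17 kept E protein partners and inhibitors of the MRFs, 2 were higher and 1 lower (median 0.17). Snai1, a zinc finger repressor that competes for E-boxes, was at 0.72 ± 0.17 (adjusted p = 0.0148 in limma). It reached the 1 TPM of the filter in 6 tumour-bearing and 2 tumour-free libraries, and so was tested because of the side where it was higher. Its call thus supports nothing and leaves Id1 as the only higher gene in the count. The inhibitors Id2 and Id1, which sequester E proteins, were called in opposite directions, with Id2 at -0.65 ± 0.21 (adjusted p = 0.0436) and Id1 at 0.51 ± 0.17 (adjusted p = 0.0483 in limma). Both calls were fragile and held in 11 (Id2) and 7 (Id1) of 26 alternatives. The Id2 call ended without any one of control 1, control 3, lisinopril 1, lisinopril 2, lisinopril 3, melanoma 1, melanoma 2, melanoma 4, melanoma plus lisinopril 1, melanoma plus lisinopril 2 or melanoma plus lisinopril 4 (-0.72 to -0.60), and the Id1 call without any one of control 1, control 3, control 4, lisinopril 1, lisinopril 2, lisinopril 3, melanoma 1, melanoma 3, melanoma 4, melanoma plus lisinopril 1, melanoma plus lisinopril 2 or melanoma plus lisinopril 3 (0.43 to 0.56).

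Of 24 kept cofactors of the MRFs and MEF2, 5 were higher and 0 lower (median 0.21). Kat2b, an acetyltransferase that acts on MyoD, was at 0.49 ± 0.11 (adjusted p = 0.0103 in limma). It was higher in 8 of 8 tumour-bearing libraries than in any tumour-free one, as were 1.49% of all genes. The acetyltransferase Ep300 was at 0.61 ± 0.16 and Hdac5, a class IIa deacetylase that represses MEF2, at 0.56 ± 0.15 (adjusted p = 0.0248 and 0.0274 in limma). The Ep300 call ended without lisinopril 1 or lisinopril 2 (0.56 to 0.58), and the Hdac5 call without any one of control 3, control 4, lisinopril 1 or lisinopril 2 (0.49 to 0.57). Vgll2, a muscle cofactor of TEAD proteins, was at 0.85 ± 0.27 (adjusted p = 0.0409 in limma), a call that held in 10 of 26 alternatives and ended without any one of control 1, control 3, control 4, lisinopril 1, lisinopril 2, lisinopril 3, melanoma 1, melanoma 2, melanoma plus lisinopril 1, melanoma plus lisinopril 2 or melanoma plus lisinopril 4 (0.71 to 0.91). The fifth was Mkl2, a coactivator of serum response factor.

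Of 25 kept genes of differentiation and fusion, 3 were higher and 2 lower (median -0.16). Actc1, the cardiac alpha-actin that is also made in developing and regenerating fibres, was at -3.14 ± 0.55 (adjusted p = 0.00385 in limma), with 11.5 to 147 TPM in tumour-bearing and 108 to 741 TPM in tumour-free muscle. The cell cycle inhibitor Cdkn1a was at 1.45 ± 0.37 (adjusted p = 0.0206 in limma), a call that ended without lisinopril 1 (1.38, adjusted p = 0.0590). Des, which encodes the intermediate filament desmin, was at 1.07 ± 0.19 (adjusted p = 0.00410 in limma). It had 2128 to 4798 TPM in tumour-bearing and 1019 to 1988 TPM in tumour-free muscle. The Des ranges did not overlap, as for the 1.49% of all genes that were higher throughout. The remaining higher gene was Cdh15, which is also counted among the satellite cell genes above. The second lower gene was Jam3, an adhesion protein. Of 25 kept MEF2 targets and regulators, 1 was higher and 0 lower (median 0.27), a share of 4.0%. It was Prkd1, a kinase that exports class IIa deacetylases from the nucleus, at 0.84 ± 0.22 (adjusted p = 0.0231 in limma). The Prkd1 call ended without lisinopril 1 (0.79) and in the fit without a filter. In melanoma against control 0 genes of these lists were called, and in melanoma plus lisinopril against lisinopril Met was, as was Chrdl2, which the filter kept for its tumour-bearing libraries alone. No called gene given with its values from these lists changed sign under any alternative run.

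Neutrophil markers were higher beside all of these results, with all 5 called (Cxcr2 reached 1 TPM in 7 tumour-bearing libraries and 1 tumour-free one) and sums of 32.1 to 346.5 TPM in tumour-bearing and 10.3 to 96.5 TPM in tumour-free muscle. Of 5 macrophage markers 2 were higher as well. None of the markers of either list was at 0 in every library, and the part of these cells in the gene lists was not tested.

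The genes whose log2(TPM + 1) followed a factor most closely over the 15 libraries were found by Pearson correlation, which describes these libraries and includes the difference between groups. Eya1 was followed most closely by Gyg (r = 0.965, Spearman's rho = 0.954), Mypn (0.941) and Ppp2r2d (0.940). Gyg, which primes glycogen synthesis, had 304 to 524 TPM in tumour-bearing and 244 to 288 TPM in tumour-free muscle. Mef2d was followed by Clcn7 (r = 0.979), Abcf2 (0.970) and Med25 (0.969). Mef2c was followed by Sypl2 (r = 0.969), Lrrc39 (0.968) and Car3 (0.967), and without melanoma 2 and melanoma plus lisinopril 1, the libraries farthest from its median, these were 0.798, 0.878 and 0.773. Car3, the carbonic anhydrase of slow fibres and fat, had 52.2 to 2373 TPM in tumour-bearing and 1768 to 3438 TPM in tumour-free muscle, with medians of 1075 and 2528 TPM. Myf6 was followed by Ppp1r3c (r = 0.919), a glycogen-targeting subunit of protein phosphatase, with 286 to 1625 TPM in tumour-bearing and 143 to 298 TPM in tumour-free muscle. The closest gene was P4ha1 for Myod1 (r = 0.927), Zfp516 for Myf5 (0.929), Gbf1 for Mef2a (0.904), Dstyk for Six4 (0.899) and Itgav for Pax7 (0.812).

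**Figure D5:**
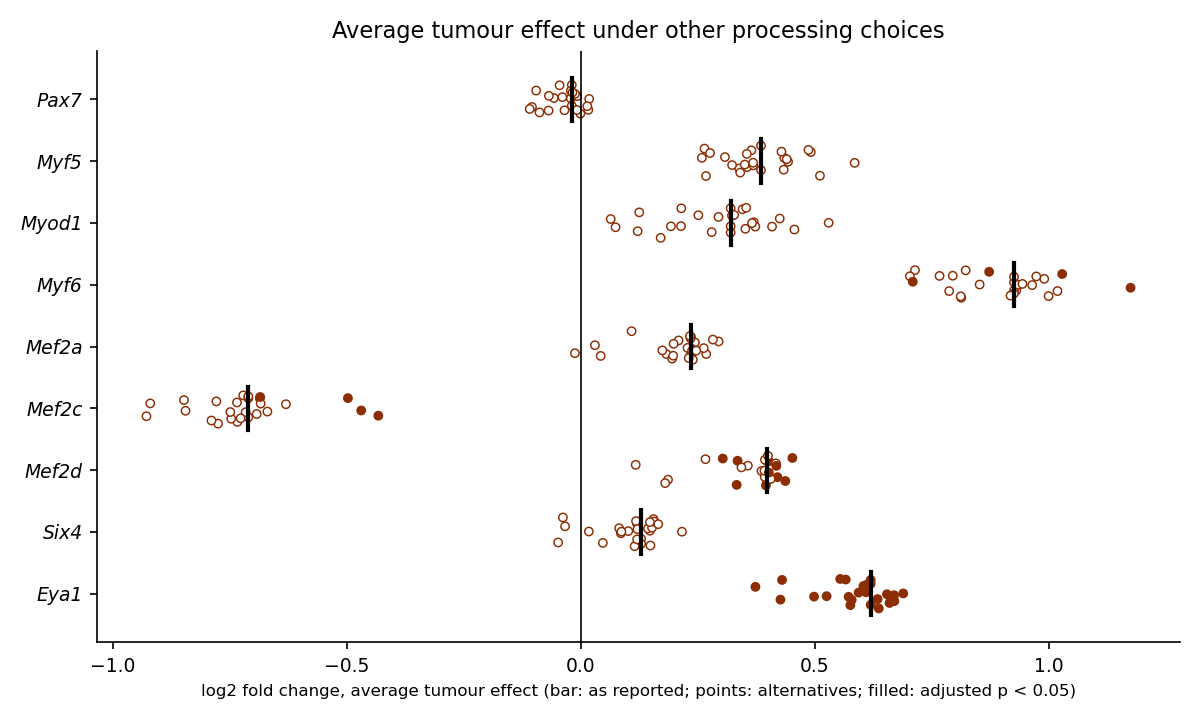
Average tumour effect of each factor on the log2 scale as reported (bar) and under each alternative (points), filled where the adjusted p was under 0.05. All points of Eya1 are filled and lie at 0.37 or above, those of Mef2d are filled in 12 of 26, and those of Pax7, Mef2a and Six4 lie on both sides of 0.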

How the data were processed

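The authors deposited TPM for 47643 gene symbols in 15 libraries, made with a stranded mRNA kit and sequenced on a NovaSeq 6000, per the labels' protocols. Per the submitters' processing notes the genome build was mm10. The sources used here do not name the aligner, the counter, the gene annotation or any filter. All deposited TPM columns have the same sum, so a count test and intervals of counting error could not be had.

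Genes with at least 1 TPM in at least 3 libraries (11923 of 21659 above 0) were fitted as log2(TPM + 1) by limma 3.58.1 (R 4.3.3). The model had 4 group means and all 15 libraries, with eBayes with trend, two-sided tests and Benjamini-Hochberg adjustment within a contrast at 0.05. Fold changes are on the log2(TPM + 1) scale and understate those of low genes, and their errors are standard errors. Errors of TPM are SDs. The labels give no batch. The fit was tested on simulated data. Named genes were the 9 factors, their relatives, up to 4 called genes of each list with the largest change, and the 3 genes most like each factor. Met, Mkl2 and Jam3 were named outside that rule, after their values were seen, and 1 further gene of that rule is not reported here. The factors and lists were chosen with earlier results of these data known.

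The fit was repeated with a pseudocount of 0.1, without a filter, with a mean of at least 5 TPM, with median-ratio and quantile scaling, TPM without the mitochondrial genome, no trend, sample quality weights, a replicate block, models holding only the groups of a contrast, each library left out, and control 2 and melanoma 2 left out together. The last of these combined with median-ratio rescaling was added after the data were seen. Positions are from GENCODE M21 and promoters from RefSeq GRCm38.p6. Tables used Python 3.11.15, pandas 2.3.3 and numpy 2.4.6, and plots matplotlib 3.10.9.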

Additional observations from a re-analysis of the deposited data

Results flagged for a closer look

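Of 27 groups of 4 libraries (9 factors in 3 groups), 2 held a library far from the other 3 by Dixon's test at the 95% level, and chance alone gives such a result in about 5% of groups. Myod1 was 40.2 TPM in melanoma 1 and 8.58 to 10.9 TPM in the other 3 melanoma libraries. The gap to the nearest of them was 0.927 of the range of the group, against a critical value of 0.829. Six4 was 4.67 TPM in melanoma 4 and 5.56 to 5.65 TPM in the other 3 melanoma libraries, with a gap of 0.913 of the range.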

How the results depend on the processing

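In the average tumour effect the 2 calls among the 9 factors became 1 without a filter, after median-ratio rescaling, after quantile normalization and without the mitochondrial genome, became 4 without control 2 and melanoma 2 together and also with quality weights, and ran from 1 to 3 when each library was left out. With that pair left out and median-ratio rescaling the count was again 2, with Mef2c (-0.68, adjusted p = 0.00578) in and Mef2d (0.12, adjusted p = 0.246) out. In melanoma plus lisinopril against lisinopril the 0 calls became 1 without the mitochondrial genome, 2 with quality weights, 1 without control 2 and melanoma 2 together, 2 when that was combined with median-ratio rescaling, and 0 to 1 when each library was left out. The other 4 contrasts kept 0 calls among the 9 in every alternative run. Over all genes, where leaving out single libraries is included, the average tumour effect called 2141 genes, from 743 (without lisinopril 1) to 4660 (quality weights), melanoma against control 77, from 5 (only the groups compared) to 1710 (quality weights), and melanoma plus lisinopril against lisinopril 177, from 5 (without lisinopril 1) to 2303 (quality weights). 

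Deviations from the group means correlated by more than 0.1 in 9 of 21 pairs of same-numbered libraries (-0.153 to 0.359). Pairs with different numbers were not compared, so these values do not settle whether the numbers pair the samples. With the replicate block the average tumour effect called 2 of the 9, with Myf6 (0.87, adjusted p = 0.0406 in limma) in and Mef2d (0.39, adjusted p = 0.0583) out. Values that changed sign were small and none of them was called. In the average tumour effect these were Six4 at -0.048 and Six2 at -0.0013 after median-ratio rescaling, Six4 at -0.038 after quantile normalization, Pax7 at 0.014 without control 2 and melanoma 2, and Mef2a at -0.013 and Six4 at -0.034 when that was combined with median-ratio rescaling. In melanoma against control Mef2a was -0.10 (median-ratio), -0.094 (quantile), -0.085 (no mitochondrial genome), -0.00093 (quality weights), -0.040 (without control 2 and melanoma 2) and -0.20 (the same with median-ratio), and Myod1 was 0.090 without control 2 and melanoma 2. In melanoma plus lisinopril against lisinopril Six4 was -0.11 (median-ratio), -0.14 (quantile), -0.0040 (no mitochondrial genome), -0.080 (quality weights) and -0.11 (without control 2 and melanoma 2, with median-ratio), and Pax7 was -0.010 (quantile). Leaving out each library moved Pax7 from -0.11 to 0.018 in the average tumour effect and -0.039 to 0.21 in melanoma plus lisinopril against lisinopril, Six4 from -0.045 to 0.29 in that last contrast, and in melanoma against control Myf5 from -0.028 to 0.24, Mef2a from -0.038 to 0.13 and Myod1 from -0.67 to 0.027. The cause of these changes was not tested. Pax7, Myf5 and Six4 are too low for some filters and have fewer alternatives, and the depth behind their TPM is unknown.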
